A study of Oryctolagus cuniculus with 4 samples.

Results

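The genes of the transforming growth factor beta (TGF-beta) and bone morphogenetic protein (BMP) pathway were followed through single-cell RNA sequencing of rabbit bladder mucosa. They were the 49 of 18475 measured genes whose symbol matched a fixed pattern of family names, among 9771 genes that carried a symbol. They comprised 15 ligands, 2 latent TGF-beta binding proteins (LTBP1 and LTBP2), 12 receptors and receptor-bound proteins, 6 SMADs, 10 extracellular antagonists and binding proteins, 3 genes known as pathway targets (ID1, ID3 and TGFBI) and BMP2K, a kinase that matched by its name alone. Genes of the family that carried no symbol were not analysed here. The study compared 4 samples with 1 library each: Injury_1 and Injury_2 were taken on day 10 after a patch of mucosa had been cut out (a focal resection), by which time epithelium covered the wound again, and Normal_1 and Normal_2 were bladder mucosa in homeostasis. The animals were adult New Zealand rabbits, the tissue was labelled urothelium, and the groups differed in the resection alone as far as the labels say. How many rabbits gave each sample is not given in the sources used here. The comparison asked how the cells of the mucosa differ between homeostasis and this stage of repair.

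In this pathway, secreted ligands bind pairs of type I and type II receptor kinases, which phosphorylate receptor-regulated SMADs. TGF-beta and activin ligands act mainly through SMAD2 and SMAD3 and BMP ligands mainly through SMAD1 and SMAD5, both groups acting with SMAD4, and SMAD7 is an inhibitory SMAD induced by the pathway itself. Follistatin, gremlin, chordins and noggin bind ligands outside the cell, TGF-beta is stored in the matrix with latent binding proteins, and in the bladder the pathway is known for exchange between the stroma and the urothelium and for scar formation.

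The libraries held 5823 to 6884 barcodes each, and 21945 cells in all passed the filters on UMIs, genes and mitochondrial share. Normal_1 was the shallowest library, with a median of 4813.5 UMIs per kept cell against 6755, 7186 and 6759 in Injury_1, Injury_2 and Normal_2, and 1388 of its 5823 barcodes were over the mitochondrial limit. Between any pair of libraries, 4 to 12 kept barcodes had the same sequence. The 27 clusters were formed without any of the 49 genes, and 22 of them were named from markers. The 7 classes described here had at least 20 cells in every sample and held 8893 fibroblast-like, 5308 endothelial-like, 1533 epithelial-like, 1470 pericyte-like, 1307 T cell-like, 649 smooth muscle-like and 627 macrophage-like cells. A further 1399 cells stayed unnamed. Although the tissue was labelled urothelium, epithelial-like cells were a small part of it. Levels are UMIs of a gene per 1000000 UMIs (CPM), summed over the cells of a class in a sample, and means are given with the SD over the 4 samples.

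Any UMI was found for 46 of the 49 genes, and 37 had at least 100. BMP10, GDF5 and GDF7, all ligands, were at 0, which allows up to 3 UMIs in all by counting error alone. The other 9 genes under 100 UMIs were the ligands GDF3, GDF6, GDF9 and INHBB, the receptors ACVR1C and BMPR1B, and the antagonists NOG (noggin), CHRD (chordin) and FSTL4. Among the 37, the class with the highest mean level was fibroblast-like for 12, endothelial-like for 9, macrophage-like for 5, smooth muscle-like and pericyte-like for 4 each, epithelial-like for 2 and T cell-like for 1. For BMP4, TGFB3, SMAD1 and ID1, the 4 samples of the leading class did not overlap with those of any other class.

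Among the ligands, BMP4 was highest in fibroblast-like cells. It stood there at 320.3 and 392 CPM in the injured samples and 235 and 547 CPM in the normal samples. Smooth muscle-like cells came next with 136 ± 40.8 CPM (SD, n = 4), and the lowest fibroblast-like sample was above the highest smooth muscle-like one. Of all BMP4 UMIs, the fibroblast-like cells held 69.4% to 90.6% in the 4 samples, which also reflects the number of these cells.

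TGFB2 and TGFB3, which encode TGF-beta isoforms, had their highest mean levels in mural cells. TGFB2 stood at 161 and 195 CPM in the injured samples and 296 and 246 CPM in the normal samples in pericyte-like cells and at 196 ± 5.53 CPM (SD, n = 4) in smooth muscle-like cells, whose samples overlapped. Both classes were above the fibroblast-like cells, at 114 to 141 CPM. TGFB3 stood at 92.9 and 131 CPM in the injured samples and 87.2 and 109 CPM in the normal samples in smooth muscle-like cells. Every sample of the pericyte-like cells was lower, at 43.6 ± 5.21 CPM (SD, n = 4). The fibroblast-like cells, at 8.08 to 50.5 CPM, overlapped with the pericyte-like cells for TGFB3. Within the smooth muscle-like cells, TGFB3 was higher in the RERGL-marked cluster (90.7 to 167 CPM) than in the ACTG2-marked cluster (0 to 24.2 CPM). No sample overlapped, but the ACTG2-marked values rested on 1, 6, 0 and 4 UMIs. These came from 23, 29, 7 and 53 cells in Injury_1, Injury_2, Normal_1 and Normal_2. Mean levels of BMP5, named after its values were seen, were also highest in mural cells. They were 118 ± 8.83 CPM in pericyte-like and 106 ± 22.04 CPM in smooth muscle-like cells (SD, n = 4). For BMP5 the smooth muscle-like samples, at 74.6 to 123 CPM, overlapped with the fibroblast-like ones, at 31.0 to 80.3 CPM.

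BMP2 was highest in epithelial-like cells, at 268 and 120.0 CPM in the injured samples and 79.3 and 100.0 CPM in the normal samples. Its epithelial samples overlapped with those of the pericyte-like and fibroblast-like cells, where it varied over 14.3 to 127 CPM and 34.8 to 139 CPM. INHBA encodes the subunit of activin A. It was highest in macrophage-like cells, at 153 and 179.9 CPM in the injured samples and 202 and 326 CPM in the normal samples, followed by fibroblast-like cells at 111 ± 53.7 CPM (SD, n = 4), and these classes overlapped. Endothelial-like and epithelial-like cells were low for INHBA, at 0.522 to 2.41 CPM and 1.78 to 3.79 CPM. BMP3 was led by fibroblast-like cells, with epithelial-like cells at 44.3 ± 11.5 CPM (SD, n = 4) inside their range, and BMP6 by fibroblast-like and endothelial-like cells at 15.3 ± 2.72 CPM and 13.3 ± 3.57 CPM (SD, n = 4), which did not differ beyond their spread.

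**Figure D1:**
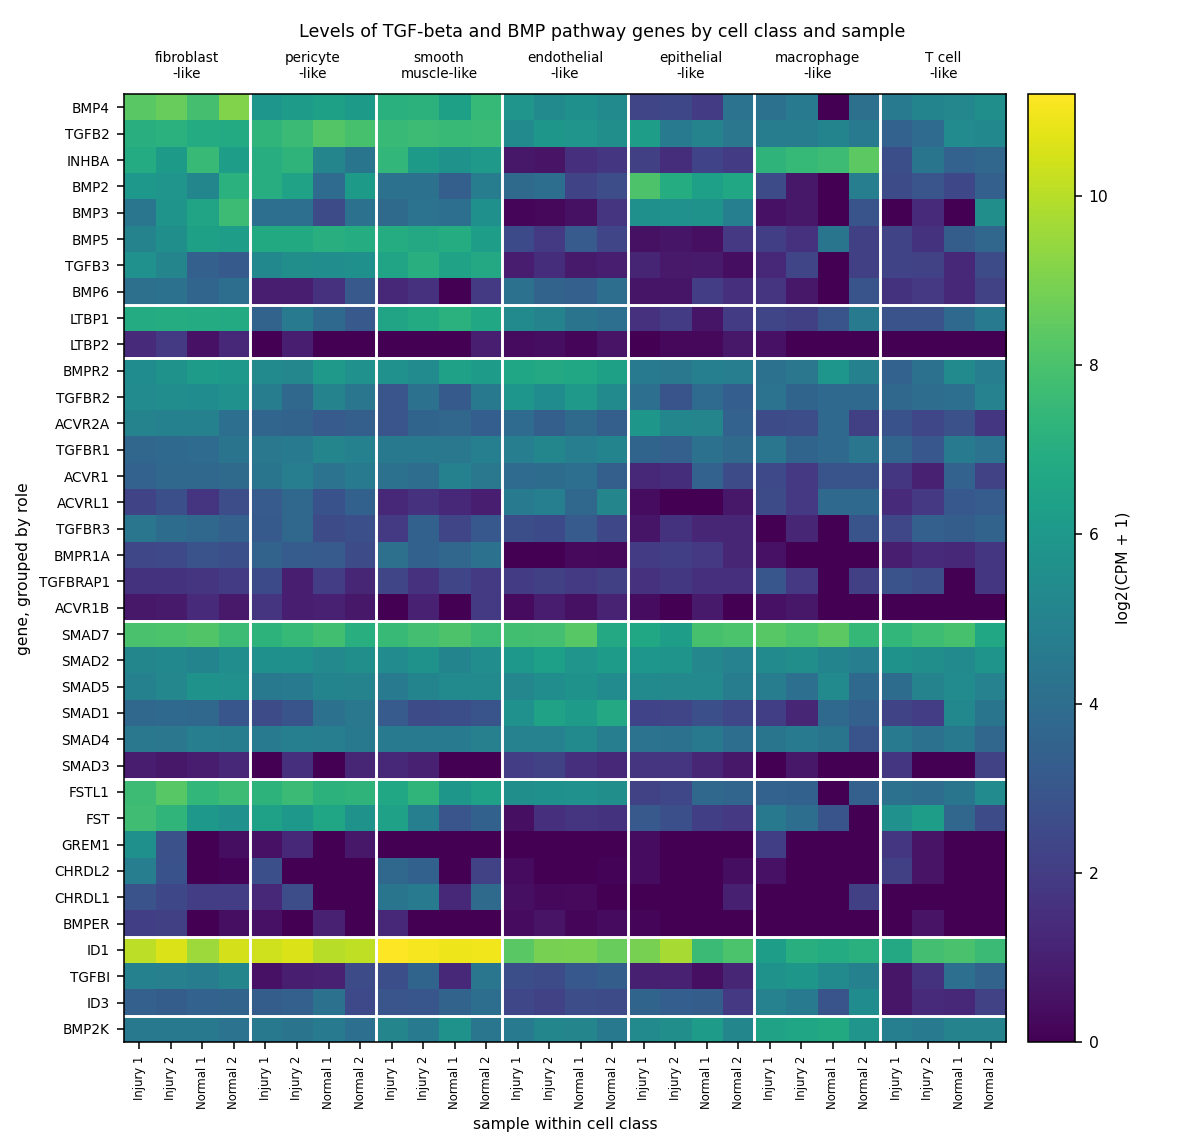
Level of the genes described, each with at least 100 UMIs (rows, grouped by role) in each sample of the 7 cell classes (columns), as log2(CPM + 1). BMP4 is brightest in fibroblast-like cells, TGFB3 in smooth muscle-like cells and SMAD1 in endothelial-like cells. TGFB2 and, by mean level, BMP5 are brightest in pericyte-like and smooth muscle-like cells, and GREM1 in the injured samples of fibroblast-like cells.

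LTBP1, which ties latent TGF-beta to the matrix, varied little among the fibroblast-like samples, at 117 and 120.4 CPM in the injured samples and 119 and 113 CPM in the normal samples. Its level in smooth muscle-like cells, 113 ± 20.4 CPM (SD, n = 4), overlapped with this, and every other class was lower in all samples. LTBP2 was close to its detection limit, with 148 UMIs in the whole series and 1.54 ± 0.935 CPM (SD, n = 4) in fibroblast-like cells.

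Several receptors were led by endothelial-like cells. BMPR2, the type II receptor for BMPs, was highest in endothelial-like cells, at 93.5 and 107 CPM in the injured samples and 102 and 81.9 CPM in the normal samples, although one smooth muscle-like sample reached 84.5 CPM. TGFBR2 and TGFBR1, the type II and type I receptors for TGF-beta, were also highest in endothelial-like cells, at 51.5 ± 12.7 CPM and 29.96 ± 3.91 CPM (SD, n = 4). TGFBR2 overlapped there with fibroblast-like cells and TGFBR1 with pericyte-like cells. ACVRL1 is a type I receptor known from vascular endothelium and was named after its values were seen. It stood at 24.2 and 27.5 CPM in the injured samples and 12.2 and 32.9 CPM in the normal samples in endothelial-like cells and at 0 to 0.658 CPM in epithelial-like cells, while 1 pericyte-like sample and both normal macrophage-like samples, at 12.7 to 13.2 CPM, were just above the lowest endothelial-like one.

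ACVR2A, a type II receptor for activins, was highest in epithelial-like cells at 60.5 and 34.2 CPM in the injured samples and 33.6 and 10.5 CPM in the normal samples, a range that covered that of the fibroblast-like cells. ACVR1, a type I BMP receptor, was highest in pericyte-like and smooth muscle-like cells, at 21.97 ± 3.68 CPM and 20.9 ± 6.24 CPM (SD, n = 4). BMPR1A, also a type I BMP receptor and named after its values were seen, was highest in smooth muscle-like cells at 14.02 ± 3.50 CPM (SD, n = 4) and at no more than 0.208 CPM in any endothelial-like sample.

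Among the SMADs, SMAD1 set the endothelial-like cells apart. It stood there at 49.3 and 85.8 CPM in the injured samples and 70.9 and 106 CPM in the normal samples, and no sample of the other 6 classes exceeded 36.9 CPM. SMAD2 was also highest in endothelial-like cells, at 67.3 ± 9.90 CPM, and so was SMAD5, at 43.1 ± 6.80 CPM (SD, n = 4), although SMAD5 in fibroblast-like cells was 41.4 ± 11.3 CPM (SD, n = 4) and did not differ beyond its spread. SMAD7 ranged from 169.9 ± 38.6 CPM in pericyte-like to 269 ± 69.8 CPM in macrophage-like cells (SD, n = 4), and the samples of all classes overlapped. SMAD4, the shared partner, was highest in endothelial-like cells at 31.6 ± 4.84 CPM (SD, n = 4), and SMAD3 was sparse, with 220 UMIs in all. Both were chosen after their values were seen, as were the coreceptor TGFBR3, at 14.3 ± 4.38 CPM (SD, n = 4) in its leading fibroblast-like cells, the activin receptor ACVR1B with 106 UMIs and the receptor-associated TGFBRAP1 with 439.

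FST and FSTL1 were highest in fibroblast-like cells. FST (follistatin), which binds activins and some BMPs, stood at 214 and 160.0 CPM in the injured samples and 62.4 and 50.2 CPM in the normal samples in fibroblast-like cells and at 74.1 ± 21.5 CPM (SD, n = 4) in pericyte-like cells, which overlapped. FSTL1, a related secreted glycoprotein, stood at 206 and 311 CPM in the injured samples and 169 and 204 CPM in the normal samples in fibroblast-like cells and at 161 ± 23.00 CPM (SD, n = 4) in pericyte-like cells. CHRDL1, a chordin-like BMP antagonist, had its highest mean level in smooth muscle-like cells. It stood there at 19.1 and 23.3 CPM in the injured samples and 1.34 and 13.8 CPM in the normal samples. The lowest of these was below the fibroblast-like cells, at 3.08 to 6.32 CPM, so these classes overlapped.

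ID1, a BMP target that blocks bHLH transcription factors, was highest in smooth muscle-like cells at 2347 and 2135 CPM in the injured samples and 1902 and 2002 CPM in the normal samples, and every other class was lower in all samples. ID3 and TGFBI, a matrix protein induced by TGF-beta, were highest in macrophage-like cells, at 25.9 ± 15.1 CPM and 45.6 ± 13.9 CPM (SD, n = 4). The Normal_1 values rested on 1 and 6 UMIs in 42 cells. BMP2K, chosen after its values were seen, was highest in macrophage-like cells too, at 87.03 and 93.95 CPM in the injured samples and 111 and 56.1 CPM in the normal samples.

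Injured and normal samples were then compared class by class with edgeR's quasi-likelihood test on summed UMIs, with Benjamini-Hochberg adjustment over all genes tested in the class. Of the 49 genes, 38 passed the filter on low counts in at least 1 class, 13 in all 7, and 11 in none. At an adjusted p under 0.05, 1 of 25 tested was called in epithelial-like cells, where 1.65% of all genes were called (0.624% higher and 1.02% lower in injured samples), and 2 of 20 in T cell-like cells, where 3.31% of all genes were called (0.799% higher and 2.51% lower). None was called in fibroblast-like (38 tested), endothelial-like (27), pericyte-like (26), smooth muscle-like (22) or macrophage-like cells (16). Among all genes, edgeR called 0% in fibroblast-like, endothelial-like, pericyte-like and smooth muscle-like cells and 0.527% in macrophage-like cells. In those 5 classes the unadjusted p by edgeR was under 0.05 for 9, 3, 3, 2 and 3 of the genes tested. The order is fibroblast-like, endothelial-like, pericyte-like, smooth muscle-like and macrophage-like. Among all genes tested it was under 0.05 for 964 of 8755, 492 of 7459, 577 of 5809, 208 of 4834 and 591 of 4362, in that order. DESeq2 called 6, 0, 1, 0 and 0 of the 49 genes. Simulated data of the same sample size were also tested. Of 4-fold changes, 44% were recovered in the fibroblast-like (8569 genes) and 60.4% in the endothelial-like class (7315 genes). The share was 78.4% in the pericyte-like (5614 genes), 36.1% in the smooth muscle-like (4630 genes) and 59.2% in the macrophage-like class (4146 genes). Of 2-fold changes, between 0% and 15% were recovered in each of these 5 classes. In the epithelial-like and T cell-like classes, 43.0% and 59.1% of 4-fold changes and 0% and 4.12% of 2-fold changes were recovered. Some calls fell on unchanged genes, 5 of 42 in the epithelial-like and 7 of 63 in the T cell-like class. In the other 5 classes these were 4 of 50, 5 of 63, 19 of 103, 2 of 37 and 6 of 70, in the order above.

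**Figure D2:**
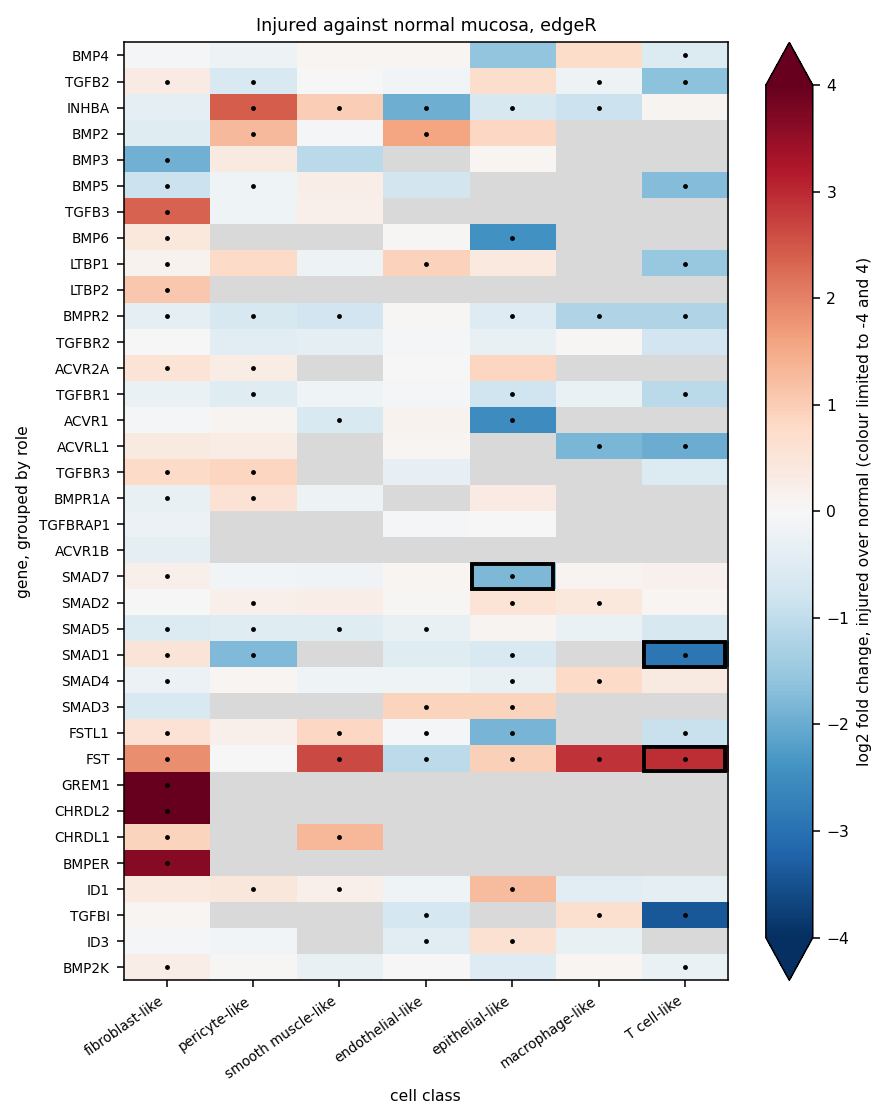
Log2 fold change of injured over normal samples from edgeR for each gene described (rows) in each cell class (columns), grey where the gene did not pass the filter on low counts. Black frames mark adjusted p under 0.05 (SMAD7 in epithelial-like cells, SMAD1 and FST in T cell-like cells), dots mark genes whose injured and normal samples did not overlap on TMM-scaled values, and GREM1 and CHRDL2 exceed the colour limit.

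In fibroblast-like cells several antagonists and TGFB3 were higher in both injured samples, and none of them passed the edgeR test. FST, at the levels given above, was higher in both injured samples than in both normal samples (log2 fold change of 1.86, SE 0.27, adjusted p = 0.121 by edgeR). TGFB3 stood at 50.5 and 33.1 CPM in the injured samples and 9.83 and 8.08 CPM in the normal samples (log2 fold change of 2.36, SE 0.32, adjusted p = 0.119 by edgeR). The groups did not overlap for either gene.

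GREM1 (gremlin), a BMP antagonist, was found at 48.5 and 5.92 CPM in the injured samples and 0 and 0.342 CPM in the normal samples. Its normal samples held 0 and 8 UMIs against 805 and 125 in the injured ones, so the injured samples also differed widely from each other. Pooled over samples, the ratio of UMIs per class UMI was 91.9 with an exact 95% interval of 46.5 to 214, which covers counting error only, and the edgeR adjusted p was 0.183. CHRDL2 and BMPER, a chordin-like antagonist and a BMP-binding regulator, were named after their values were seen. CHRDL2 stood at 26.6 and 6.11 CPM in the injured samples and 0 and 0.0855 CPM in the normal samples, with 2 UMIs in the normal samples together and a pooled ratio of 225 (exact 95% interval 62.1 to 1865, adjusted p = 0.127 by edgeR). Smooth muscle-like cells also held CHRDL2, at 12.3, 10.1, 0 and 3.68 CPM in Injury_1, Injury_2, Normal_1 and Normal_2 from at most 10 UMIs. BMPER stood at 3.19 and 3.32 CPM in the injured samples and 0 and 0.385 CPM in the normal samples (adjusted p = 0.183 by edgeR). All 3 genes passed the filter on low counts through the injured samples, so they could only be tested because they were high there.

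BMP3 went the other way, at 20.2 and 53.99 CPM in the injured samples and 92.95 and 204 CPM in the normal samples (log2 fold change of -1.91, SE 0.61, adjusted p = 0.349 by edgeR). Its injured samples were both below its normal ones, and each group varied more than 2-fold within itself. DESeq2 called CHRDL2, GREM1, BMPER, FST and TGFB3 as higher and BMP3 as lower in injured samples. Over the settings run, which include DESeq2, 0 to 574 of all genes were called in this class. Without Injury_1 edgeR called CHRDL2 alone, without Injury_2 it called CHRDL2 and GREM1, without Normal_2 it called BMPER, and without the shallow Normal_1 it called none. In this class 16 of the 38 tested genes were higher in both injured samples, against 21.6% of all genes, and 6 were lower in both, against 21.5%, on TMM-scaled values. Their median log2 fold change was 0.05, beside 0.00 over all genes. Of the 8 antagonists tested, 6 were higher in both injured samples, with a median of 1.38. Because GREM1, CHRDL2 and BMPER entered through their injured levels, no weight is placed on these counts.

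The fibroblast-like cells fell into 5 clusters, led by SFRP2, TCF21, WIF1 with HHIP, LVRN and APOD. FST was highest in the WIF1 cluster in every sample, at 1067 and 874 CPM in the injured samples and 121 and 95.5 CPM in the normal samples, so the groups did not overlap inside this cluster. The WIF1 cluster made up 8.42% and 11.9% of fibroblast-like cells in the injured samples and 21.4% and 30.8% in the normal ones. The SFRP2 cluster made up 42.4% and 35.7% of the class in the injured samples and 19.4% and 16.6% in the normal ones, and neither difference was tested. FST did not overlap between groups in the SFRP2, TCF21, WIF1 and LVRN clusters. In the APOD cluster FST was 204, 46.8, 46.8 and 32.2 CPM in Injury_1, Injury_2, Normal_1 and Normal_2, so Injury_2 and Normal_1 met.

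With the 5 clusters weighted equally, an alternative chosen after seeing the data, FST stood at 336 and 231 CPM in the injured samples and 59.7 and 41.7 CPM in the normal samples. The groups did not overlap on this weighting. The share of fibroblast-like cells with an FST UMI was 36.0%, 29.98%, 15.3% and 14.9% in Injury_1, Injury_2, Normal_1 and Normal_2, at median depths of 7996, 8523, 5080.0 and 7009 UMIs. After thinning each cell to 1000 UMIs it was 11.7%, 9.04%, 4.50% and 3.49%, with 2 to 10 shallower cells left out per sample. Endothelial-like cells, where FST is not known as a marker, held 0.0266% to 0.227% on the same thinned scale at median depths of 4663.5 to 6440.0 UMIs.

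TGFB3 and GREM1 peaked in other clusters than FST. TGFB3 was highest in the SFRP2 cluster in each sample, at 78.4 and 54.9 CPM in the injured samples and 18.4 and 23.1 CPM in the normal samples, and was at most 3.87 CPM in the WIF1 cluster. GREM1 was highest in the APOD cluster, at 128 and 19.4 CPM in the injured samples and 0 and 1.90 CPM in the normal samples, and so was CHRDL2 in the injured samples, at 64.4 and 37.8 CPM in the injured samples and 0 and 0 CPM in the normal samples. In the normal samples of all 5 clusters both were at 0 to 1.90 CPM. With the clusters weighted equally TGFB3 stood at 35.5 and 25.7 CPM in the injured samples and 9.86 and 10.2 CPM in the normal samples and GREM1 at 47.2 and 6.77 CPM in the injured samples and 0 and 0.610 CPM in the normal samples. BMP3 stood at 26.1 and 60.6 CPM in the injured samples and 88.8 and 178 CPM in the normal samples on that weighting. None of these 3 overlapped between the groups.

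The WIF1 cluster also held the highest level of BMP4, BMP2, BMP5 and INHBA among the fibroblast-like clusters in each of the 4 samples. BMP4 stood there at 688 and 985 CPM in the injured samples and 517 and 892 CPM in the normal samples and BMP2 at 257 and 209 CPM in the injured samples and 96.1 and 270.0 CPM in the normal samples. The injured and normal samples overlapped for both. INHBA in this cluster was 261 and 193 CPM in the injured samples and 659 and 188 CPM in the normal samples, with Normal_1 far above the other samples. BMP4 over the whole class had a log2 fold change of -0.04 (SE 0.46) with overlapping groups. Its difference in mean CPM changed sign when the clusters were weighted equally, where it stood at 372 and 461 CPM in the injured samples and 221 and 429.8 CPM in the normal samples, and so did that of BMP2.

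**Figure D3:**
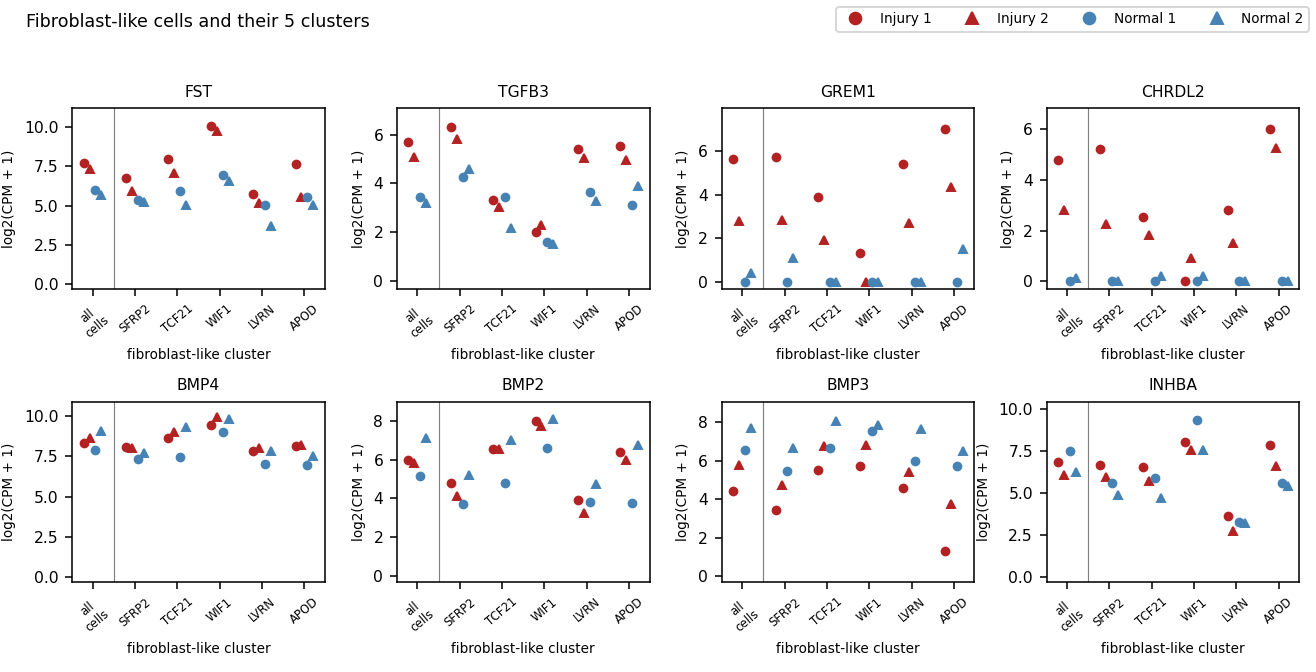
Level of 8 genes as log2(CPM + 1) in all fibroblast-like cells and in each of their 5 clusters, one point per sample (red injured, blue normal, circle replicate 1, triangle replicate 2). FST peaks in the WIF1 cluster, where both injured samples (1067 and 874 CPM) are far above both normal samples (121 and 95.5 CPM), whereas TGFB3 peaks in the SFRP2 cluster and GREM1 and CHRDL2 in the APOD cluster.

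Other features of the fibroblast-like cells moved with these genes. Summed levels of 5 fibroblast markers were 89714 and 96046 CPM in the injured samples and 46569 and 61902 CPM in the normal ones. Summed levels of 8 immediate early and stress genes were 21465 and 27134 CPM against 34620 and 31864 CPM. Their part in the differences was not tested.

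In pericyte-like cells INHBA, named here after its values were seen, stood at 123 and 156 CPM in the injured samples and 33.7 and 19.1 CPM in the normal samples. Both injured samples were above both normal ones, and the adjusted p by edgeR stayed over the threshold (log2 fold change of 2.44, SE 0.33, adjusted p = 0.0645). DESeq2 called INHBA as higher. With 1 sample left out, its log2 fold change by edgeR ranged from 2.10 to 2.82. INHBA was also higher in both injured samples of smooth muscle-like cells, at 168 and 67.7 CPM in the injured samples and 50.98 and 64.4 CPM in the normal samples (log2 fold change of 0.99, SE 0.46, adjusted p = 0.971 by edgeR). It was lower in both injured samples of endothelial-like and macrophage-like cells and overlapped in fibroblast-like cells. Whether the effect in pericyte-like cells differed from any of these was not tested.

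SMAD1 in pericyte-like cells stood at 5.12 and 6.59 CPM in the injured samples and 17.4 and 21.7 CPM in the normal samples (log2 fold change of -1.75, SE 0.41, adjusted p = 0.157 by edgeR), with both injured samples lower. Its injured samples alone would not have passed the filter on low counts. Endothelial markers, which accompany SMAD1, summed to 127, 129, 362 and 716 CPM in the pericyte-like cells of Injury_1, Injury_2, Normal_1 and Normal_2, and their part was not tested. Of the 26 genes tested in this class, 7 were higher and 6 lower in both injured samples, against 20.6% and 19.7% of all genes, and the median log2 fold change was 0.06, beside -0.01 over all genes.

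Smooth muscle-like cells gave no call among 22 genes. FST stood at 84.7 and 27.3 CPM in the injured samples and 6.71 and 10.1 CPM in the normal samples (log2 fold change of 2.63, SE 0.65, adjusted p = 0.760 by edgeR) and CHRDL1 at 19.1 and 23.3 CPM in the injured samples and 1.34 and 13.8 CPM in the normal samples (log2 fold change of 1.33, SE 0.78, adjusted p = 0.971 by edgeR). The injured samples did not overlap with the normal ones for either gene. FST passed the filter on low counts only through the injured samples, and the normal samples of CHRDL1 alone would not have passed. With 1 sample left out, the log2 fold change ranged from 1.67 to 3.24 for FST and from 0.54 to 3.92 for CHRDL1. FST in this class came mostly from the ACTG2-marked cluster, where 57 of 62 UMIs in Injury_1 lay in 23 cells. In all, 5 genes were higher and 3 lower in both injured samples, against 17.9% and 17.1% of all genes, with a median log2 fold change of -0.12, beside -0.01 over all genes.

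In epithelial-like cells SMAD7 fell. It stood at 100.0 and 76.9 CPM in the injured samples and 247 and 259.8 CPM in the normal samples, with both injured samples far below both normal samples, and the change passed the test (log2 fold change of -1.78, SE 0.25, adjusted p = 0.0401 by edgeR). The call was lost without Injury_1 (adjusted p = 0.170) and without Injury_2 (adjusted p = 0.209), where the lone injured sample is taken to vary like the normal pair, and held without Normal_1 (log2 fold change -1.93, adjusted p = 0.011) and without Normal_2 (adjusted p = 0.0151). The log2 fold change was -1.60 to -1.93 in those 4 fits.

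The receptor ACVR1 stood at 1.38 and 1.78 CPM in the injured samples and 10.6 and 4.93 CPM in the normal samples in epithelial-like cells, FSTL1 at 3.44 and 4.27 CPM in the injured samples and 12.3 and 11.5 CPM in the normal samples, and BMP6 at 0.551 and 0.534 CPM in the injured samples and 3.03 and 1.97 CPM in the normal samples. All 3 were lower in both injured samples, and their adjusted p by edgeR were 0.0763, 0.0763 and 0.0923. DESeq2 called ACVR1 and FSTL1 as lower. Over the settings run, which include DESeq2, 25 to 972 of all genes were called in this class. BMP6 rested on 4, 3, 16 and 6 UMIs in the 4 samples. ACVR1 and BMP6 passed the filter on low counts only through the normal samples, so they could only be tested because they were high there.

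ID1 was the opposite case, at 470.0 and 859 CPM in the injured samples and 196 and 262 CPM in the normal samples in epithelial-like cells (log2 fold change of 1.28, SE 0.42, adjusted p = 0.171 by edgeR). Both injured samples were above both normal ones without passing the threshold, while DESeq2 called ID1 as higher. Of the 25 genes tested in this class, 5 were higher and 9 lower in both injured samples, against 27.5% and 26.4% of all genes, and the median log2 fold change was 0.00, as over all genes. The epithelial-like cells of the groups also differed in make-up by value. KRT15 stood at 4762, 4419, 1959 and 2711 CPM and UPK3B, a uroplakin of the luminal side, at 236, 82.2, 35.7 and 11.2 CPM in Injury_1, Injury_2, Normal_1 and Normal_2. KRT5 (64.7, 175, 183 and 116 CPM) overlapped, and so did another uroplakin, UPK1B (39.53, 5.34, 18.02 and 3.62 CPM). Summed fibroblast markers were 1135, 1595, 148 and 1849 CPM, and the part of these values in the result was not tested.

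Whether the injury effect differed between classes was tested in 1 edgeR fit over 4 classes with the sample as a block, in which 34 of the genes could be tested. The effect in fibroblast-like minus that in epithelial-like cells was called for 4 genes, against 4.83% of all genes: FSTL1 at 2.39 (SE 0.34, adjusted p = 0.00196), ACVR1 at 2.36 (SE 0.44, adjusted p = 0.00922), SMAD7 at 1.96 (SE 0.41, adjusted p = 0.0164) and BMP6 at 2.95 (SE 0.68, adjusted p = 0.0269) on the log2 scale by edgeR. The effect in endothelial-like minus that in epithelial-like cells was called for 3, against 2.16% of all genes. These were ACVR1 at 2.64 (SE 0.45, adjusted p = 0.0114), FSTL1 at 1.76 (SE 0.34, adjusted p = 0.0190) and SMAD7 at 1.90 (SE 0.41, adjusted p = 0.0319) by edgeR. The effect in epithelial-like minus that in smooth muscle-like cells was called for FSTL1 alone, at -2.62 (SE 0.36, adjusted p = 0.00409) by edgeR, against 1.05% of all genes.

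ACVR1 stood at 10.5, 12.8, 12.9 and 13.4 CPM in fibroblast-like and 14.1, 14.6, 15.8 and 9.41 CPM in endothelial-like cells in Injury_1, Injury_2, Normal_1 and Normal_2. After TMM scaling the groups overlapped in both classes. FSTL1 in endothelial-like cells was within 45.7 to 50.4 CPM in all samples. SMAD7 in endothelial-like cells was 222, 227, 313 and 106 CPM in the same order, where the normal samples were the highest and the lowest. In the contrast of fibroblast-like with endothelial-like cells, of fibroblast-like with smooth muscle-like cells and of endothelial-like with smooth muscle-like cells, edgeR called 0 of the 34 genes, beside 0.0668%, 0.0445% and 0% of all genes. At an unadjusted p under 0.05 there were 8, 4 and 6 in that order, and no other tool was run on these contrasts. Leaving out either injured sample left no call in any contrast with epithelial-like cells, while leaving out Normal_1 gave 7, 8 and 5 calls in the order above.

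**Figure D4:**
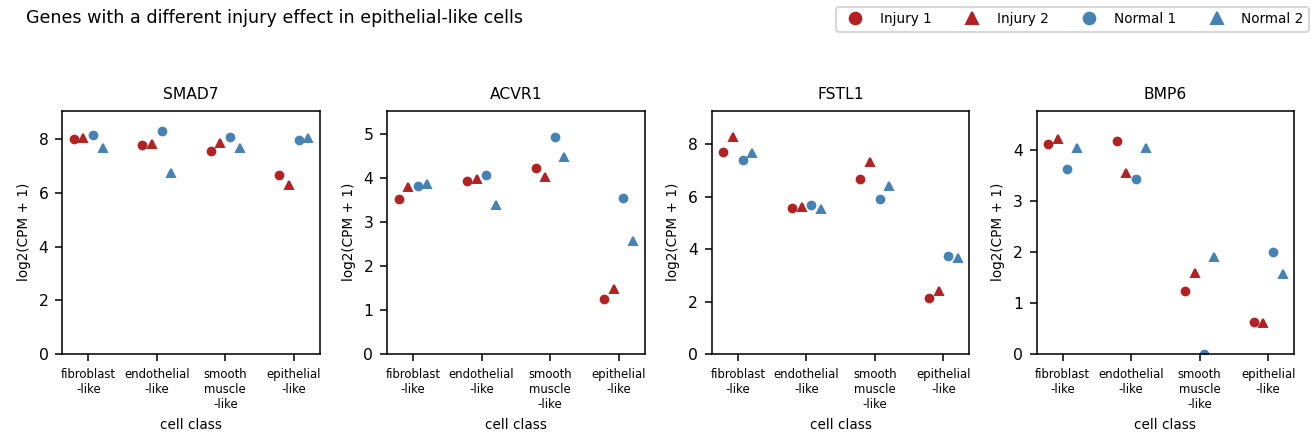
Level of SMAD7, ACVR1, FSTL1 and BMP6 as log2(CPM + 1) in the 4 classes compared, one point per sample (red injured, blue normal, circle replicate 1, triangle replicate 2). In epithelial-like cells both injured samples lie below both normal samples for all 4 genes, for example SMAD7 at 100 and 76.9 CPM against 247 and 260 CPM, while the groups overlap or lie close in fibroblast-like and endothelial-like cells.

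In T cell-like cells FST rose and SMAD1 fell, although most SMAD1 molecules of the normal samples lay in a cluster whose markers there went against the name of the class. FST stood at 49.6 and 74.6 CPM in the injured samples and 11.8 and 4.83 CPM in the normal samples (log2 fold change of 2.96, SE 0.49, adjusted p = 0.0431 by edgeR), and both injured samples were above both normal ones. SMAD1 stood at 3.91 and 3.13 CPM in the injured samples and 36.9 and 19.3 CPM in the normal samples (log2 fold change of -2.90, SE 0.47, adjusted p = 0.0418 by edgeR), with both injured samples below both normal ones. The UMIs behind these values were few, with 165, 143, 8 and 4 for FST and 13, 6, 25 and 16 for SMAD1. SMAD1 passed the filter on low counts only through the normal samples, so it could only be tested because it was high there. FST passed it in both injured samples, and its normal samples alone would not have passed. The FST call was lost without Injury_2 (adjusted p = 0.160), and the SMAD1 call without Injury_1 (adjusted p = 0.160) or Injury_2 (adjusted p = 0.181). The FST call was also lost with high doublet scores removed (adjusted p = 0.0876) and with coarser clusters at resolution 0.3 (adjusted p = 0.214). Without the shallow Normal_1 both held, at log2 fold changes of 3.63 and -2.46 (adjusted p = 1.24e-06 and 0.0127).

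The 4 T cell-like clusters did not share these genes equally. Of the SMAD1 UMIs in the normal samples, 24 of 25 and 15 of 16 came from the cluster led by cell cycle genes, which held 32 and 18 cells there. In that cluster the summed level of 4 T cell markers was 1353 and 1003 CPM in the injured samples but 76.1 and 387 CPM in the normal ones, and the summed level of 7 endothelial markers was 692 and 669 CPM against 3299 and 2775 CPM. The markers of the normal cells in this cluster thus went against its name, and their part in the SMAD1 result was not tested. When this cluster was left out, an alternative chosen after seeing the data, SMAD1 no longer passed the filter on low counts, no gene of the 49 was called, and FST had a log2 fold change of 2.81 with an adjusted p of 0.077 by edgeR.

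In the injured samples FST was highest among T cell-like clusters in the one led by IL1RL1 and CTLA4, genes known from regulatory T cells. It stood there at 139 and 181 CPM in Injury_1 and Injury_2, from 76 and 62 UMIs in 102 and 68 cells. The normal samples held 4 and 3 cells of this cluster, too few for a comparison. FST there was 320.4 CPM in Normal_1, from 4 UMIs, and 0 CPM in Normal_2. This cluster made up 15.18% and 18.99% of the class in the injured samples and 2.899% and 2.158% in the normal ones. The part of this difference in make-up in the FST result was not tested. In the CXCR6-marked cluster FST stood at 41.5 and 52.5 CPM in the injured and 6.97 and 3.57 CPM in the normal samples, the latter from 2 UMIs each. Summed fibroblast markers in this cluster were 12580.2, 10118, 7468 and 14626 CPM in Injury_1, Injury_2, Normal_1 and Normal_2, and 417 and 366 CPM in the injured samples of the IL1RL1 cluster. In the CXCR6-marked cluster these markers overlapped between the groups, while FST in the fibroblast-like cells themselves was higher in both injured samples. The part of fibroblast RNA in the FST result was not tested.

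**Figure D5:**
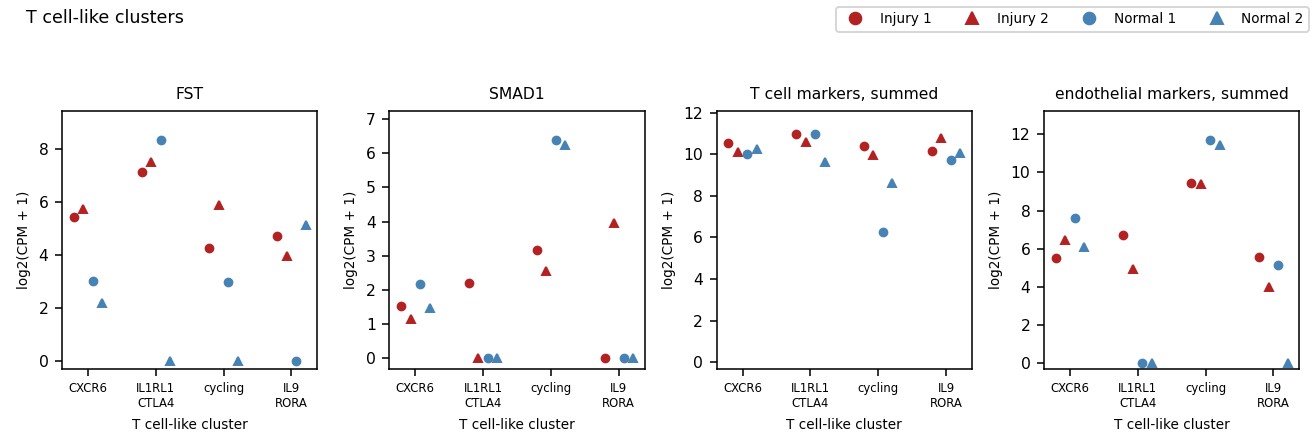
Level of FST and SMAD1 and summed level of 4 T cell and 7 endothelial markers as log2(CPM + 1) in the 4 T cell-like clusters, one point per sample (red injured, blue normal, circle replicate 1, triangle replicate 2). In the normal samples of the cycling cluster SMAD1 and the endothelial markers are high and the T cell markers low, and the IL1RL1 cluster rests on 4 and 3 cells in the normal samples.

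Among the other genes of this class, TGFBI stood at 0.601 and 2.09 CPM in the injured samples and 16.3 and 10.9 CPM in the normal samples and TGFB2 at 10.5 and 14.1 CPM in the injured samples and 41.4 and 36.2 CPM in the normal samples, both lower in both injured samples with adjusted p of 0.0517 and 0.0590 by edgeR. In all, 1 of the 20 genes tested was higher and 11 were lower in both injured samples, against 26.4% of all genes in each direction. Their median log2 fold change was -0.70, beside -0.01 over all genes. Because SMAD1 and TGFBI passed the filter on low counts only through their normal samples, no weight is placed on these counts and this median. Summed endothelial markers in the whole class were 247, 259, 1496 and 713 CPM in Injury_1, Injury_2, Normal_1 and Normal_2, so they were higher in both normal samples. The part of these markers in the lower levels was not tested.

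Endothelial-like cells gave no call among 27 genes. BMP2 stood at 13.7 and 15.7 CPM in the injured samples and 3.95 and 5.25 CPM in the normal samples (log2 fold change of 1.58, SE 0.33, adjusted p = 0.529 by edgeR) and LTBP1 at 38.7 and 30.8 CPM in the injured samples and 18.7 and 16.2 CPM in the normal samples (log2 fold change of 0.93, SE 0.24, adjusted p = 0.594 by edgeR). Both were higher in both injured samples and neither passed the threshold. SMAD1, BMPR2, TGFBR1, TGFBR2 and ACVRL1, which had their highest mean levels in this class, overlapped between the groups. Of these, only SMAD1 set the class apart from every other class. In all, 3 of 27 genes were higher and 6 lower in both injured samples, against 18.1% and 19.2% of all genes, with a median log2 fold change of -0.05, beside -0.01 over all genes.

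In macrophage-like cells the normal samples held only 42 and 59 cells. INHBA stood at 153 and 179.9 CPM in the injured samples and 202 and 326 CPM in the normal samples (log2 fold change of -0.85, SE 0.37, adjusted p = 0.369 by edgeR), lower in both injured samples without passing the threshold. Of 16 genes tested, 4 were higher and 4 lower in both injured samples, against 25.5% and 21.6% of all genes, with a median log2 fold change of -0.08, beside 0.03 over all genes.

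A further list of 73 pathway genes outside the name pattern covered activation and matrix handling of ligands, coreceptors, intracellular regulators and target genes, and 43 of them were found in the data. By edgeR, 2 of 30 tested were called in epithelial-like cells, both lower, where 1.65% of all genes were called, and 1 of 24 in T cell-like cells, lower, where 3.31% of all genes were called. DESeq2 called 7 and 1 in these classes. None was called among 33 in fibroblast-like, 29 in endothelial-like, 27 in pericyte-like, 25 in smooth muscle-like and 20 in macrophage-like cells, where 9, 2, 4, 2 and 3 were under an unadjusted p of 0.05 and DESeq2 called 4, 1, 0, 0 and 0 in that order. Among all genes tested, 964 of 8755, 492 of 7459, 577 of 5809, 208 of 4834 and 591 of 4362 were under that unadjusted p, in the same order. ITGB6, the integrin subunit that releases latent TGF-beta on epithelia, fell in epithelial-like cells from 33.9 and 21.7 to 5.10 and 2.85 CPM (log2 fold change of -3.03, SE 0.38, adjusted p = 0.0322 by edgeR). THBS1 (thrombospondin 1), another activator of latent TGF-beta, fell there from 924 and 672 to 253 and 236 CPM (log2 fold change of -1.94, SE 0.25, adjusted p = 0.0328 by edgeR). In both genes every injured sample was below every normal one. Without Injury_1 the THBS1 call was lost (adjusted p = 0.179) and without Injury_2 both were (adjusted p = 0.142 for THBS1 and 0.0625 for ITGB6 by edgeR).

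THBS1 also fell in T cell-like cells, from 672 and 525 to 170 and 145 CPM (log2 fold change of -1.90, SE 0.25, adjusted p = 0.0317 by edgeR). As with SMAD1, the cluster led by cell cycle genes held 377 of the 455 THBS1 UMIs of this class in Normal_1 and 165 of 435 in Normal_2. Without that cluster its log2 fold change was -1.17 (adjusted p = 0.288 by edgeR), and at resolution 0.3 it was -0.40 (adjusted p = 0.723). The THBS1 call in T cell-like cells was also lost with high doublet scores removed (adjusted p = 0.0504), without Injury_1 (adjusted p = 0.167) and without Injury_2 (adjusted p = 0.204). THBS1 did not fall in every class. In macrophage-like cells it made up 7042 of 2183218 and 4679 of 1500749 UMIs in Injury_1 and Injury_2. In Normal_1 and Normal_2 it was 211 of 153777 and 591 of 303251, a lower share than in either injured sample. Pericyte-like cells were also higher in both injured samples by CPM, and neither class was called. By CPM the groups overlapped in fibroblast-like, endothelial-like and smooth muscle-like cells. SKIL and KLF10, both known as TGF-beta-induced genes, had log2 fold changes of -1.26 and -1.29 in epithelial-like cells and did not pass the threshold (adjusted p = 0.066 and 0.076 by edgeR). The matrix gene CCN2, also known as a target, had a log2 fold change of 1.48 there (adjusted p = 0.057 by edgeR). SKIL, KLF10 and CCN2 were named after their values were seen.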

How the data were processed

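Single-cell RNA of rabbit bladder mucosa (2 injured and 2 normal samples, 1 library each) was profiled with the 10x Chromium 3' v3 chemistry. The authors deposited raw UMI counts per gene and cell from Cell Ranger 6.0.1; the genome release is not given in the sources used here, and no sequence could be shown. Total UMIs per library were 28745017 to 47881609. Following the study's stated filter, cells with under 500 UMIs, under 200 genes or over 15% mitochondrial UMIs (13 genes) were removed. Doublets were scored with Scrublet (scanpy 1.11.5), and the top 5% per library were kept in the main results and removed in an alternative. Cells were integrated with Seurat 5.3.0 (CCA, 2000 variable genes without the 49 genes and the pathway list, 30 components) and clustered at resolution 0.8. Clusters were named from marker genes.

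UMIs were summed per sample and class and tested with edgeR 4.0.16 (filterByExpr, TMM, quasi-likelihood F test with Benjamini-Hochberg adjustment), SE being the fold change over the root of F. Classes with at least 20 cells in every sample were tested, and whether groups overlapped was read from TMM-scaled values. DESeq2 1.42.0 was an alternative. Differences between classes were tested in 1 fit with the sample as a block. The fits were tested on simulated data. The study calls the samples of a group biological replicates, with no statement of how many rabbits gave each, and intervals cover counting error only. For shares of cells, each cell was thinned to 1000 UMIs.

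The 49 genes and all lists were chosen with earlier results of these data known. Genes were named where they were called, where the groups did not overlap with at least a 2-fold difference, where a difference between classes was called, or where they had the highest levels in their role; others are said to have been chosen after their values were seen. Alternatives covered scaling, the low-count filter, the tool, leaving out samples, cell filters, doublets and clustering. Equal weighting of fibroblast-like clusters and leaving out the cycling T cell-like cluster were added after seeing the data. One gene of the 49 is counted but not reported here by name.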

Additional observations from a re-analysis of the deposited data

Results flagged for a closer look

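Differences between cell classes in the response to injury were tested directly, by the interaction term of an edgeR quasi-likelihood fit over 4 classes with the sample as a block, and 8 of them passed at an adjusted p under 0.05. All concerned epithelial-like cells, and in each the level of the gene in epithelial-like cells was lower in both injured samples than in both normal ones. They fell on FSTL1, ACVR1, SMAD7 and BMP6 and used the same epithelial-like samples, so they are not separate results. Among all genes, 4.83% were called in fibroblast-like minus epithelial-like and 2.16% in endothelial-like minus epithelial-like cells. In epithelial-like minus smooth muscle-like cells 1.05% were called. The values below are differences of log2 fold changes between classes, with adjusted p by edgeR.

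FSTL1, a secreted glycoprotein related to follistatin, was flagged in 3 contrasts. Its effect in fibroblast-like minus epithelial-like cells was 2.39 (SE 0.34, adjusted p = 0.00196), in endothelial-like minus epithelial-like cells 1.76 (SE 0.34, adjusted p = 0.0190), and in epithelial-like minus smooth muscle-like cells -2.62 (SE 0.36, adjusted p = 0.00409). It rested on few molecules in epithelial-like cells, at 3.44 and 4.27 CPM in the injured samples and 12.3 and 11.5 CPM in the normal samples.

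ACVR1, a type I BMP receptor, differed in fibroblast-like minus epithelial-like cells by 2.36 (SE 0.44, adjusted p = 0.00922) and in endothelial-like minus epithelial-like cells by 2.64 (SE 0.45, adjusted p = 0.0114). SMAD7, the inhibitory SMAD, differed in the same contrasts by 1.96 (SE 0.41, adjusted p = 0.0164) and 1.90 (SE 0.41, adjusted p = 0.0319). BMP6 differed in fibroblast-like minus epithelial-like cells by 2.95 (SE 0.68, adjusted p = 0.0269), with 4, 3, 16 and 6 UMIs in the epithelial-like cells of Injury_1, Injury_2, Normal_1 and Normal_2. Summed fibroblast markers in epithelial-like cells were 1135, 1595, 148 and 1849 CPM in that order, and their part in these differences was not tested.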

How the results depend on the processing

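The summaries of the genes called depended on the processing in most classes. In T cell-like cells 2 genes were called, against 5 with no filter on low counts, 1 with high doublet scores removed, 0 at resolution 0.3, 0 without the cycling cluster (chosen after seeing the data) and 0 to 7 with 1 sample left out. In epithelial-like cells 1 was called, against 7 with no filter, 4 with DESeq2, 2 with high doublet scores removed and 0 to 2 with 1 sample left out. In fibroblast-like cells 0 were called, against 6 with no filter, 6 with DESeq2 and 0 to 2 with 1 sample left out. In pericyte-like cells 0 were called, against 1 with upper quartile factors, 2 with no filter, 1 with DESeq2 and 1 to 4 with 1 sample left out, each of these calling INHBA. In smooth muscle-like cells 0 were called, against 1 with no filter and 0 to 1 with 1 sample left out. In endothelial-like and macrophage-like cells the count stayed at 0 in all alternatives run. Among all genes the count ranged from 0 to 1329 in T cell-like, 0 to 50 in endothelial-like, 25 to 972 in epithelial-like, 0 to 574 in fibroblast-like, 3 to 228 in macrophage-like, 0 to 828 in pericyte-like and 0 to 104 in smooth muscle-like cells. The cause of these shifts was not tested beyond the samples named in the report.

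The replicate numbers do not pair the samples, since nothing in the labels ties Injury_1 to Normal_1 and the correlation of same-numbered deviations was -0.013 to 0.19. With the replicate number as a block, 0 genes were called in epithelial-like (SMAD7 adjusted p = 0.076, and of the further pathway genes ITGB6 and THBS1 adjusted p = 0.0542 each, by edgeR), 6 in fibroblast-like and 3 in pericyte-like cells. Differences between classes, fitted with the sample as a block, fell from 4 to 2 in fibroblast-like minus epithelial-like, from 3 to 0 in endothelial-like minus epithelial-like and from 1 to 0 in epithelial-like minus smooth muscle-like cells without that block, and with 1 sample left out ranged over 0 to 7, 0 to 8 and 0 to 5. For fibroblast-like minus endothelial-like, fibroblast-like minus smooth muscle-like and endothelial-like minus smooth muscle-like cells the ranges were 0 to 3, 0 to 1 and 0 to 1.

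Among the log2 fold changes of named genes under each alternative, 461 kept their direction and side of the threshold, 50 newly passed it, 9 no longer did and 17 changed sign. BMP4 in fibroblast-like cells gave 0.10 with the block, 0.041 at a mitochondrial limit of 10%, and -0.56 to 0.78 with 1 sample left out (above 0 without Injury_1 or Normal_2), and its CPM difference gave 91.0 with equally weighted clusters, where BMP2 gave 13.6. In endothelial-like cells, with 1 sample left out, BMPR2 ranged from -0.034 to 0.16 (below 0 without Injury_2), SMAD2 from -0.19 to 0.35 (below 0 without Injury_2 or Normal_1), TGFBR1 from -0.26 to 0.23 (above 0 without Injury_1 or Normal_2) and TGFBR2 from -0.31 to 0.24 (above 0 without Injury_2 or Normal_1), and TGFBR1 gave 0.0014 at the 10% limit. The log2 fold change of ID3 in macrophage-like cells ranged from -0.91 to 2.15 and that of SMAD7 from -0.11 to 0.45, both turning without Normal_2, ID3 gave 0.0098 with the 49 genes among the variable genes, and SMAD7 gave -0.14 at resolution 0.3 and -0.11 with the 49 genes among the variable genes. Depth limits BMP6, ACVR1 and SMAD1 outside their leading classes and every value from the 42 and 59 normal macrophage-like cells.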
